A study of Sus scrofa with 6 samples.

Results

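The genes described here are the 7 NADH dehydrogenase (ND) subunit genes of pig mitochondrial DNA (mtDNA): ND1, ND2, ND3, ND4L, ND4, ND5 and ND6. They were chosen by Ensembl gene identifier and not by their measured values, though with earlier results of these data known. They are 7 of the 32420 features that were listed for every sample. Of those features 21607 were protein-coding genes and 10813 were long non-coding RNAs (lncRNAs). RNA-seq was made from 6 ovary samples of S. scrofa, 3 from the Chinese breed Meishan and 3 from the European breed Large White. All 6 were labelled 49 days post coitus, and the labels name no treatment. The labels do not say whether the tissue was of the fetus or of the pregnant female, nor whether the 3 samples of a breed came from 3 animals, so the p-values below measure only the spread between these samples. The pair of questions asked of the ND genes was how the levels of the subunits relate to one another, and whether the level differs between Meishan and Large White.

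Complex I takes electrons from NADH, passes them to ubiquinone and pumps protons across the inner mitochondrial membrane. Its membrane arm is built around the proteins of the ND genes, while the arm that holds the NADH site, and all accessory subunits, are encoded in the nucleus. The strands of mtDNA are each copied into long RNAs that are then cut into separate messengers, largely at the tRNA genes that lie between them. ND6 is the only ND gene whose messenger is read from the light strand, and ND4L and ND4 share a bicistronic messenger, as do ATP8 and ATP6. In the RefSeq gene order (assembly Sscrofa11.1), ND1 and ND2 come first, ND3, ND4L, ND4 and ND5 lie next to one another after the genes of the COX and ATP subunits, and ND6 lies between ND5 and CYTB.

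The unit was RPKM, the reads (here read pairs) of a gene per kilobase of its length, scaled to the number of mapped reads, so that levels could be compared between genes. The recovered depth was 35185781 to 39033204 mapped reads per sample, and 36.6% to 46.3% of them fell on listed features. The ND genes were read deeply: from 520 reads, for ND4L in Large White replicate 1, to 44508 reads, for ND5 in Meishan replicate 2. These numbers give a counting error of 4.39% and 0.474% of the value, so the differences below were limited by the spread between samples and not by depth.

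Meishan replicate 3 stood apart from the other libraries over all genes. Its Pearson r of log2(RPKM + 1) with each other library was 0.865 to 0.888, against 0.932 to 0.975 among the other 5 libraries. It held 491 RPKM of INHA, the inhibin alpha subunit, where the others held 2.05 to 4.93, and 34.6 RPKM of TOP2A, a gene of dividing cells, where the others held 1.37 to 1.83. INSL3 was 235 RPKM there and 1.04 to 15.6 in the others. Several results are therefore also given without this library, and INHA and TOP2A were chosen after their values were seen. Markers of the ovary were uneven. Of the 4 matched pre-granulosa markers, GATA4 was at 18.1 to 30.4 RPKM and FST at 6.77 to 37.2 RPKM, while LGR5 was at 0 to 0.106 and IRX3 at 0.0555 to 0.358 RPKM. Of the 7 matched germ cell markers, KIT was at 1.68 to 16.9 RPKM, PRDM1 reached 3.09 RPKM, and DDX4, which germ cells express, was at 0 to 1.58 RPKM. WT1, a gonadal somatic marker, was at 9.24 to 12.3 RPKM. CYP11A1, which makes pregnenolone from cholesterol in steroid-producing cells, was at 506 to 1882 RPKM (also chosen after its values were seen). Red cell genes were present, with HBB at 41.5 to 137 RPKM. In bulk tissue fewer cells of a type and less RNA per cell cannot be told apart.

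ND4 (ENSSSCG00000018087), whose protein is one of the large proton-pumping subunits, was the highest of the 7 genes. Its level was 235, 823 and 431 RPKM in Meishan replicates 1, 2 and 3, and 273, 369 and 230 RPKM in Large White replicates 1, 2 and 3. Meishan replicate 2 was far above all others, and the remaining Meishan samples lay on either side of the Large White samples' median. ND4 ranked 53rd among the 21607 protein-coding genes by mean RPKM.

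ND2 (ENSSSCG00000018069) and ND5 (ENSSSCG00000018091) encode proton-pumping subunits of the same type. ND2 was at 190, 644 and 283 RPKM in Meishan against 224, 281 and 214 RPKM in Large White, in replicate order. ND5 was at 179, 657 and 349 RPKM in Meishan against 193, 221 and 210 RPKM in Large White. In both genes Meishan replicate 1 was the lowest of the 6 samples and Meishan replicate 2 the highest, so the breeds overlapped. The Large White samples were close together in ND5, at 208 ± 13.7 (SD, n = 3), while Meishan was at 395 ± 243 (SD, n = 3).

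ND1 (ENSSSCG00000018065) and ND3 (ENSSSCG00000018084) encode subunits at the junction of the membrane arm with the nuclear-encoded arm. ND1 was at 132, 463 and 214 RPKM in Meishan against 211, 249 and 164 RPKM in Large White. ND3 was at 188, 393 and 245 RPKM in Meishan against 253, 350 and 201 RPKM in Large White. The breeds overlapped in both genes, and Meishan replicate 1 was again the lowest sample. ND3 varied least of the 7, with the highest sample 2.08 times the lowest.

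ND4L (ENSSSCG00000018086), a small subunit in the membrane arm, was the lowest of the 7 genes. It was at 68.1, 177 and 99.5 RPKM in Meishan against 49.8, 56.2 and 65.3 RPKM in Large White. It was the only ND gene in which every Meishan sample lay above every Large White sample, though the lowest Meishan sample and the highest Large White sample differed by little. ND4L ranked 321st among the protein-coding genes.

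ND6 (ENSSSCG00000018092), the light-strand gene, was at 167, 711 and 411 RPKM in Meishan against 155, 242 and 227 RPKM in Large White. It varied most of the 7, with the highest sample 4.58 times the lowest. Meishan replicates 2 and 3 were above all Large White samples, while Meishan replicate 1 lay between them.

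**Figure D1:**
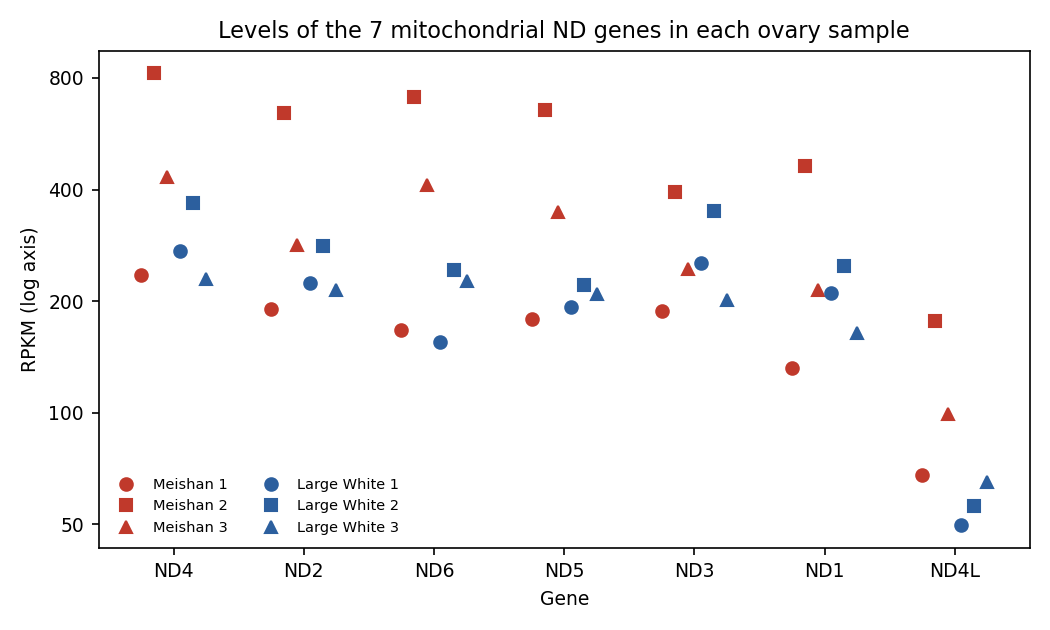
RPKM (log axis) of the 7 ND genes, ordered by mean log2 RPKM, in each of the 6 samples; each point is 1 sample, red for Meishan and blue for Large White. Meishan replicate 2 (red squares) is the highest sample for all 7 genes, from 177 RPKM for ND4L to 823 RPKM for ND4, and ND4L lies below the other genes in every sample.

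By the mean of log2 RPKM over the 6 samples, the order was ND4 (8.46), ND2 (8.12), ND6 (8.09), ND5 (8.06), ND3 (8.03), ND1 (7.78) and ND4L (6.28). ND4 was the highest and ND4L the lowest in 6 of 6 samples. ND4 was 1.27-fold above ND2, its neighbour in this order, and 4.54-fold above ND4L. ND1, the next gene up from ND4L, was 2.83-fold above it.

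The 7 genes make 21 pairs, and each pair was tested on the differences of log2 RPKM within samples (two-sided exact sign-flip permutation test, n = 6, smallest possible p = 0.0312). In 12 pairs the same gene was higher in 6 of 6 samples. These were the 6 pairs with ND4, the other 5 pairs with ND4L, and ND2 over ND1 (1.27-fold). Each had the smallest possible exact p, 0.0312, which was 0.0547 after Benjamini-Hochberg adjustment over the 21 pairs, so 0 of 21 passed 0.05. With this floor a pair could pass only if more than 12 pairs reached it, whatever the size of its gap. The count of 0 therefore does not show that levels were equal. The neighbours ND2 and ND6 (exact p = 0.875), ND6 and ND5 (exact p = 0.688) and ND5 and ND3 (exact p = 0.875) differed by less than the spread of the difference between samples. Their mean differences on the log2 scale were 0.029 ± 0.37, 0.030 ± 0.20 and 0.029 ± 0.53 (SD, n = 6). ND3 was above ND1 in 5 of 6 samples, by 1.19-fold (exact p = 0.0938).

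ND4L and ND4 share a messenger, yet the RPKM of ND4L was 0.152 to 0.290 of that of ND4. The other bicistronic messenger showed a like gap, with ATP8 at 0.0647 to 0.0980 of ATP6. ND4L and ATP8 are the shortest of the 13 protein-coding genes of mtDNA, at 297 and 204 bases as recovered from the values, and each shares bases with its partner. How reads that touch both partners were counted was not tested.

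The share of each gene in the summed ND level showed how the subunits varied against one another. ND1 took 11.4%, 11.98% and 10.5% of the sum in Meishan against 15.5%, 14.1% and 12.5% in Large White. Every Meishan sample was below every Large White sample, which held for no other of the 7 shares. This is a description with no test.

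The share of ND3 was 16.3%, 10.2% and 12.05% in Meishan against 18.6%, 19.8% and 15.4% in Large White. The share of ND6 was 14.4%, 18.4% and 20.2% in Meishan against 11.4%, 13.7% and 17.3% in Large White. The breeds overlapped in both, by 1 sample each. ND4 held a narrow range, 17.5% to 21.3% over the 6 samples, and ND2 held 13.9% to 16.7%.

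**Figure D2:**
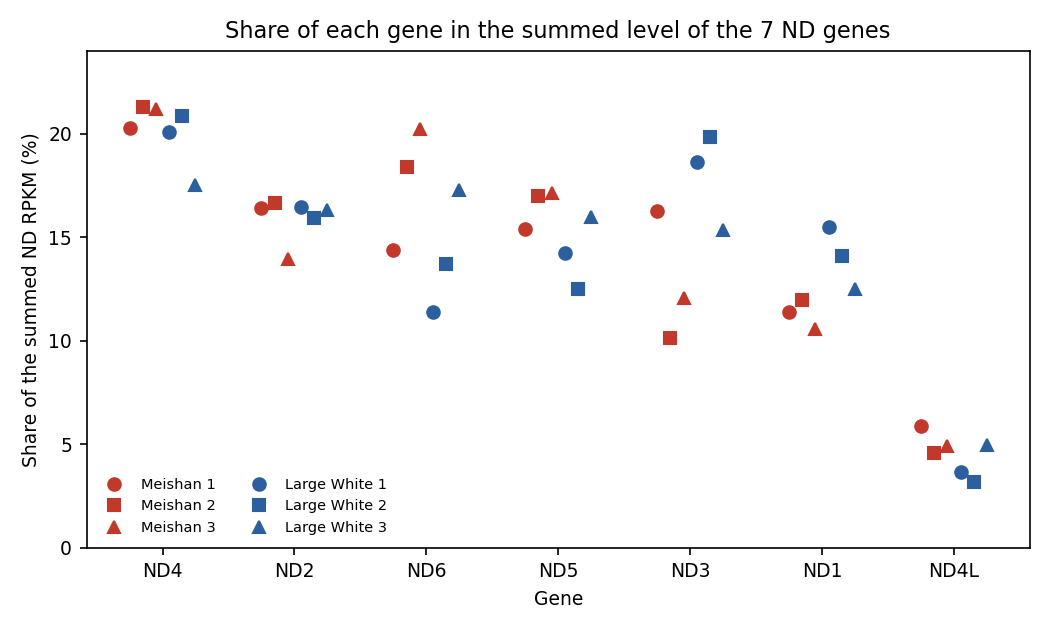
Share (%) of each ND gene in the summed RPKM of the 7 genes, per sample; points as in the plot of levels. ND4L takes 3.18% to 5.88% in every sample, and for ND1 the 3 Meishan samples lie between 10.5% and 11.98%, below the 3 Large White samples at 12.5% to 15.5%.

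Across the 6 samples the ND genes moved largely together. Pearson's r of log2 RPKM between 2 ND genes had a median of 0.913 over the 21 pairs. It was highest between the neighbours ND5 and ND6, at 0.978, although they are read from opposite strands, and lowest between ND3 and ND4L, at 0.476. These values are descriptions over 6 samples that share library and depth, and Meishan replicate 2, the highest sample in 7 of 7 ND genes and in 6 of 6 other protein-coding genes of mtDNA, enters all of them.

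The summed level of the 7 genes was 1159, 3867 and 2032 RPKM in Meishan against 1360, 1768 and 1311 RPKM in Large White. The lowest and the highest of the 6 samples were both Meishan, so the breeds overlapped. The mean log2 difference, Meishan minus Large White, was 0.51 (1.42-fold), smaller than the spread between the Meishan samples (exact permutation of the breed labels, two-sided p = 0.5). With 3 against 3 samples this test cannot give a p below 0.1. Without Meishan replicate 2 the difference was 0.066 (exact p = 0.9), and without Meishan replicate 3 it was 0.53 (exact p = 0.7). Without Meishan replicate 1 it was 0.94, with no overlap (exact p = 0.1, the smallest that 2 against 3 samples allow).

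ND reads made up 0.115%, 0.401% and 0.206% of the mapped reads in Meishan against 0.135%, 0.171% and 0.129% in Large White. The 95% Wilson intervals were narrow, from 0.114% to 0.116% in Meishan replicate 1 and from 0.399% to 0.403% in Meishan replicate 2. They cover counting error only. Within Meishan the samples thus differed far beyond counting error.

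Of the RPKM of all 13 protein-coding genes of mtDNA, the ND genes held 20.3%, 26.1% and 24.3% in Meishan against 25.9%, 27.5% and 26.1% in Large White. Meishan replicate 1 was the lowest. In that sample COX1, the catalytic subunit of cytochrome c oxidase, was at 2460 RPKM, close to the 2597 RPKM of Meishan replicate 3, although its summed ND level was the lowest of all samples. Meishan replicate 1 also held the most HBB, 137 RPKM, and the part of red cell RNA in this value was not tested.

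For the breed comparison of single genes, limma was run on log2(RPKM + 1) over the 14902 features with enough signal, with Benjamini-Hochberg adjustment over all of them, and a gene was called at an adjusted p under 0.05 and a fold of at least 2. All 7 ND genes passed the filter and 0 of 7 were called, where 0.758% of all tested features were called. At an unadjusted p under 0.05 there was 1 of 7, ND4L, against 15.9% of all tested features. The same counts, 0 and 1, were obtained with limma-voom on the recovered reads.

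ND4L had the largest estimate of the 7, a log2 fold change of 0.89 ± 0.35 (SE, n = 3 per breed), with a 95% interval from 0.093 to 1.70 and a limma adjusted p of 0.267. ND6 followed at 0.84 ± 0.53 (limma adjusted p = 0.476), ND5 at 0.73 ± 0.47 (limma adjusted p = 0.483) and ND4 at 0.61 ± 0.49 (limma adjusted p = 0.579). ND2 was at 0.45 ± 0.46 (limma adjusted p = 0.673), ND1 at 0.20 ± 0.46 (limma adjusted p = 0.862) and ND3 at 0.0068 ± 0.38 (limma adjusted p = 0.995). Every estimate was above 0, with a median of 0.61 where the median over all tested features was -0.025. With 1 library left out this median ranged from 0.16 (without Meishan replicate 2) to 1.06 (without Meishan replicate 1). Between the same settings ND4 went from 0.16 to 1.06, ND5 from 0.26 to 1.20 and ND6 from 0.36 to 1.40, and ND4L from 0.53 to 1.21. The estimates of ND1, ND2 and ND3 were below 0 when Meishan replicate 2 was left out, at -0.28, -0.037 and -0.28.

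The intervals were wide. For ND6 the 95% interval of the log2 fold change ran from -0.39 to 2.06, or 0.765-fold to 4.17-fold, and for ND3 from -0.86 to 0.88, or 0.549-fold to 1.84-fold. ND4L was 1 of the 9.94% of tested features in which every Meishan sample was above every Large White sample.

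With levels scaled to the RPKM outside mtDNA, the median log2 fold change of all tested features moved from -0.025 to 0.17 and that of the ND genes from 0.61 to 0.87. Again 0 of 7 were called. This scaling divides all features of a sample by the same factor, so the distance between the ND median and that of all features could hardly change.

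ND6 was set against the other 6 ND genes, which are read from the heavy strand, as the log2 ratio of its RPKM to their geometric mean in the same sample. This ratio was 0.11, 0.59 and 0.74 in Meishan against -0.20, 0.14 and 0.43 in Large White. ND6 was above the heavy-strand mean in 5 of 6 samples, the exception being Large White replicate 1, and the breeds overlapped. The difference between the breeds was 0.35 on the log2 scale, or 1.28-fold (exact permutation of the breed labels, two-sided p = 0.3). Against ND5 alone, its neighbour on the opposite strand, it was 0.11 (exact p = 0.6), and the RPKM of ND6 was 0.802 to 1.18 of that of ND5. The libraries were strand-specific and counted by strand, and how complete the separation of strands was in them was not tested.

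**Figure D3:**
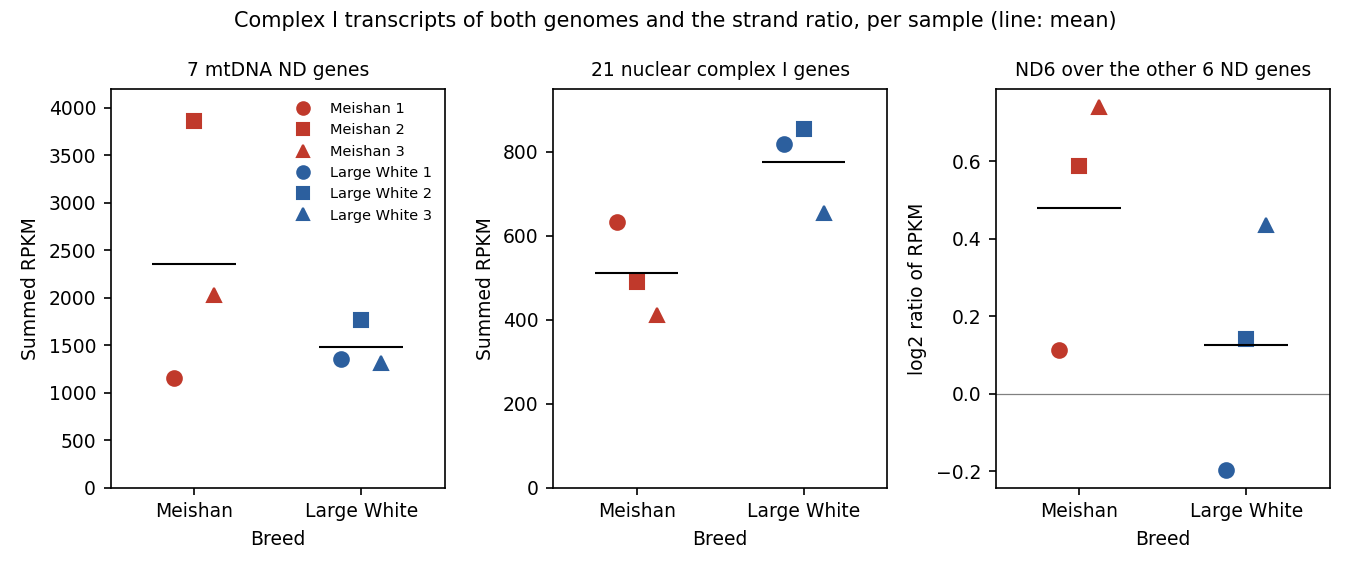
Summed RPKM of the 7 mtDNA ND genes (left) and of 21 nuclear complex I genes (middle), and the log2 ratio of ND6 to the other 6 ND genes (right), with 1 point per sample and a line at each breed's mean. The ND sum overlaps between the breeds and is highest in Meishan replicate 2, at 3867 RPKM; the nuclear sum is 411 to 634 RPKM in Meishan and 655 to 855 RPKM in Large White; the strand ratio overlaps.

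The other 6 protein-coding genes of mtDNA gave the context of the ND genes. Their summed level was 4560, 10940 and 6325 RPKM in Meishan against 3892, 4650 and 3715 RPKM in Large White. By limma 0 of 6 were called and 0 of 6 had an unadjusted p under 0.05, against 2 of 6 with limma-voom, also with 0 called. Over all tested features 0.758% were called by limma, and 15.9% by limma and 16% by limma-voom had an unadjusted p under 0.05. All 6 estimates were above 0, from 0.59 ± 0.46 for CYTB, the mtDNA subunit of complex III, to 1.04 ± 0.58 for ATP6, a proton-channel subunit of ATP synthase (limma adjusted p = 0.564 and 0.421). Their median was 0.68, and it was 0.33 without Meishan replicate 2 and 1.07 without Meishan replicate 1. In the latter fit 3 of 6 had an unadjusted p under 0.05, against 17.4% of all tested features there. In COX1 every Meishan sample was above every Large White sample, at 2460, 4634 and 2597 RPKM against 1995, 2170 and 1884 RPKM. This held for 1 of the 6 genes, against 9.94% of all tested features.

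The nuclear genes of complex I supply the remaining subunits. Of 38 listed genes 21 could be matched to an identifier and all 21 were tested. Their summed level was 634, 491 and 411 RPKM in Meishan against 819, 855 and 655 RPKM in Large White, so every Meishan sample was below every Large White sample, though Meishan replicate 1 and Large White replicate 3 were close. By limma 0 of 21 were called, with limma-voom also 0. At an unadjusted p under 0.05 there were 12 of 21 with either tool, each lower in Meishan, against 15.9% of all tested features in either direction. The log2 fold change was below 0 in 19 of 21, with a median of -0.60 where that of all features was -0.025. In 9 of 21 every Meishan sample was below every Large White sample, against 13.6% of all tested features.

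These counts moved with single libraries. The 12 genes at an unadjusted p under 0.05 became 7 without Meishan replicate 2 (14.0% of all tested features there) and 6 without Large White replicate 1 (9.32%). They became 8 without Large White replicate 2 (8.89%), 7 of them lower in Meishan. The count was 16, all lower, without Meishan replicate 1 (17.4%). It was 10, with 9 lower, without Meishan replicate 3 (20.8%), and 11, all lower, without Large White replicate 3 (14.1%). The 9 genes fully below became 17 without Meishan replicate 1 (21.7% of all tested features there) and 14 without Large White replicate 3 (22.1%).

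NDUFB5, an accessory subunit of the membrane arm, had the lowest p of the list. It was at 5.73, 6.20 and 5.37 RPKM in Meishan against 16.1, 17.3 and 10.7 RPKM in Large White, with no overlap, and its log2 fold change was -1.19 ± 0.20 (SE), with a limma adjusted p of 0.0539. It was called without Meishan replicate 3 (-1.14, limma adjusted p = 0.0469) and under quantile normalization (-1.13, limma adjusted p = 0.0486). Its adjusted p stayed above 0.05 under each other alternative.

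NDUFS5, another accessory subunit, was at 34.8, 29.6 and 35.0 RPKM in Meishan against 59.5, 75.5 and 51.7 RPKM in Large White, with a log2 fold change of -0.88 ± 0.20 (limma adjusted p = 0.113). The member with the highest level was NDUFA4, a protein long counted with complex I and now placed in cytochrome c oxidase. It was at 114, 81.8 and 52.0 RPKM in Meishan against 143, 168 and 114 RPKM in Large White (limma adjusted p = 0.270). The sums and counts of the 21 genes include NDUFA4. It was 1 of the 12 with an unadjusted p under 0.05 and 1 of the 9 fully below. The member with the lowest level, NDUFA6, was at 2.77, 3.54 and 1.27 RPKM in Meishan against 1.40, 1.91 and 0.132 RPKM in Large White. It was 1 of the 2 with an estimate above 0.

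In the same samples some other measures separated the breeds. Of all tested features, 9.94% had every Meishan sample above, and 13.6% every Meishan sample below, every Large White sample. Summed markers of gonadal stroma, endothelium, red cells, mesonephros, muscle and testis somatic cells overlapped between the breeds over all 6 samples. Without Meishan replicate 3 only red cells and mesonephros did. Stroma was then at 60.9 to 65.1 RPKM in Meishan against 81.4 to 115 RPKM in Large White. Testis somatic cells were at 2.76 to 4.47 against 18.3 to 35.2 RPKM, endothelium at 71.1 to 74.9 against 58.5 to 62.3 RPKM, and muscle at 0.797 to 0.802 against 0.862 to 1.64 RPKM. In that setting 21.2% of all tested features were fully lower in Meishan. The summed level of 4 matched white blood cell markers was 14.4 to 18.2 RPKM in Meishan and 22.4 to 25.5 RPKM in Large White, and the level of KIT, a receptor of germ cells and other cells, was 1.68 to 7.77 against 14.8 to 16.9 RPKM. The other 6 matched germ cell markers overlapped, summing to 3.09 to 6.44 RPKM in Meishan and 2.29 to 4.03 RPKM in Large White. The 4 matched pre-granulosa markers summed to 36.0 to 66.4 RPKM in Meishan, or 36.0 to 40.2 RPKM without Meishan replicate 3, and 25.5 to 32.4 RPKM in Large White. Of these, GATA4 was at 29.0 to 30.4 RPKM in Meishan and 18.1 to 23.9 RPKM in Large White. FST overlapped, at 6.77 to 37.2 and 7.31 to 8.41 RPKM. CYP11A1 was at 506 to 1416 RPKM in Meishan, or 1299 to 1416 RPKM without Meishan replicate 3, and 1655 to 1882 RPKM in Large White. It was 1 of 5 listed genes of steroid-producing cells, added after values were seen. FDXR was also fully lower in Meishan, at 53.4 to 69.9 against 78.7 to 102 RPKM. LHCGR, PRLR and SCARB1 overlapped. Without Meishan replicate 3 SCARB1 was higher in Meishan, at 908 to 1119 against 356 to 505 RPKM. The sum of the 5 genes overlapped, at 866 to 2593 against 2299 to 2467 RPKM. The part of these measures in the levels of the nuclear complex I genes was not tested. Without Meishan replicate 3 the median of the nuclear genes was -0.46, with 17 of 21 below 0. With levels scaled to the RPKM outside mtDNA it was -0.36, with 18 of 21 below 0 and 7 of 21 at an unadjusted p under 0.05, 6 of them lower in Meishan. On that scale 18.2% of all tested features had an unadjusted p under 0.05.

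**Figure D4:**
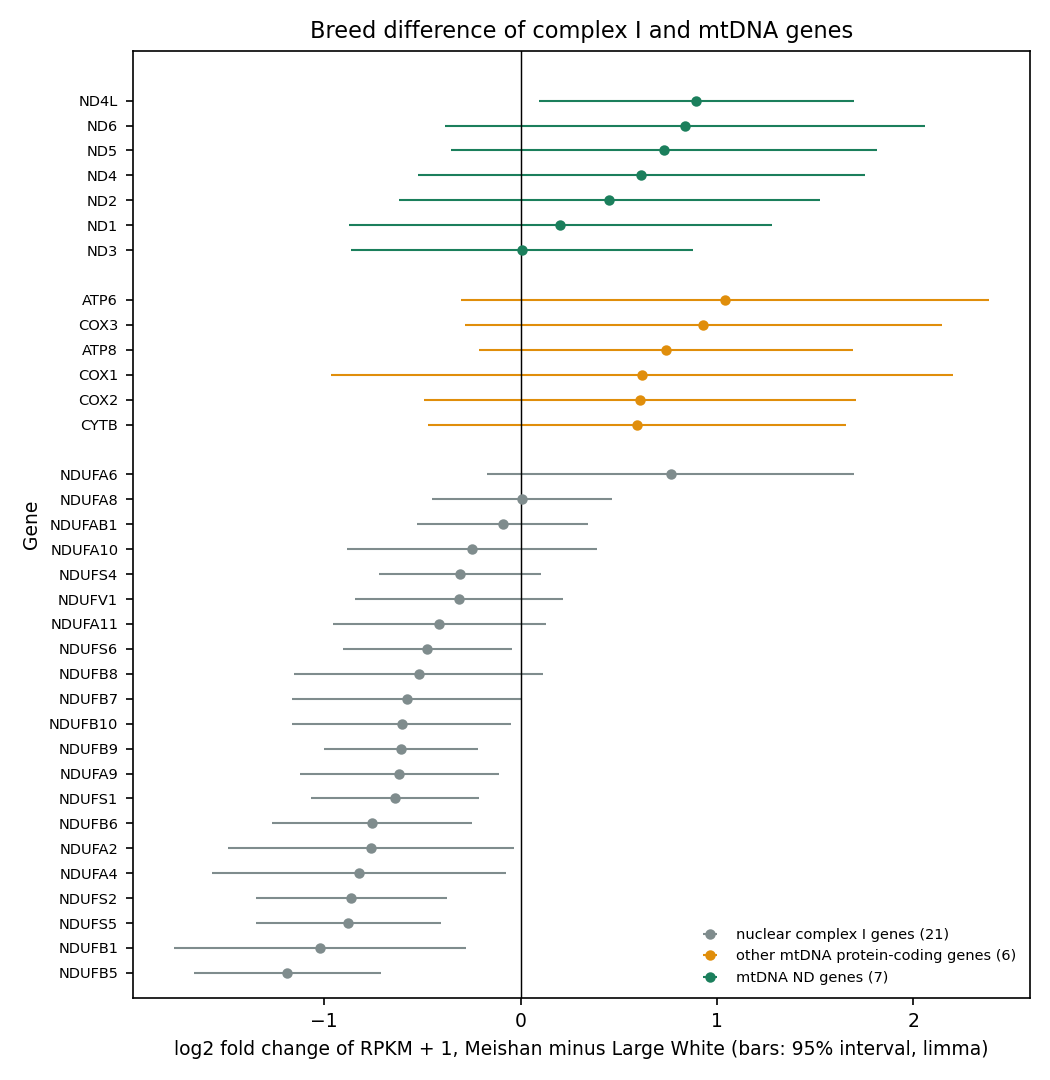
Log2 fold change, Meishan minus Large White, of RPKM + 1 with its 95% interval (limma) for the 7 ND genes, the other 6 mtDNA protein-coding genes and 21 nuclear complex I genes. All 13 mtDNA estimates lie above 0, and of these only the interval of ND4L (0.093 to 1.70) excludes 0; 19 of the 21 nuclear estimates lie below 0, down to -1.19 for NDUFB5.

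Complex I is put together with the help of assembly factors. Of 19 listed genes 13 were matched and tested, 0 of 13 were called by limma and by limma-voom, and 4 of 13 had an unadjusted p under 0.05 with either tool, each lower in Meishan. Over all tested features 0.758% were called and 15.9% had an unadjusted p under 0.05. The count of 4 became 0 with levels scaled to the RPKM outside mtDNA, 0 without Large White replicate 1, 0 without Large White replicate 2 and 2 without Meishan replicate 2. The shares of all tested features under 0.05 were 18.2%, 9.32%, 8.89% and 14.0%, in the same order. The median log2 fold change was -0.38, with 12 of 13 below 0, where the median of all features was -0.025. It was -0.21 without Meishan replicate 3, and -0.15, with 9 of 13 below 0, under that scaling. NDUFAF4 was at 1.59, 1.23 and 2.15 RPKM in Meishan against 2.63, 3.17 and 2.59 RPKM in Large White (-0.53 ± 0.19, limma adjusted p = 0.251). FOXRED1, an oxidoreductase needed for complex I assembly, was at 6.52, 4.65 and 6.04 RPKM in Meishan against 8.12, 8.59 and 7.80 RPKM in Large White (-0.45 ± 0.17, limma adjusted p = 0.253). In both the breeds did not overlap. Of the 13, 4 had every Meishan sample below every Large White sample, against 13.6% of all tested features. NDUFAF3 had the highest mean level, 28.0 RPKM, and NDUFAF6 the lowest, 0.763 RPKM.

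The genes that copy mtDNA and make, cut and stabilise its RNA were listed as well, and 26 of 33 were matched and 25 tested. By limma 0 of 25 were called, with limma-voom also 0, and 3 of 25 had an unadjusted p under 0.05 with either tool, against 0.758% called and 15.9% under 0.05 among all tested features. With 1 library left out the count of 3 ranged from 0 (without Large White replicate 1) to 5 (without Meishan replicate 1), and it was 1 without Meishan replicate 2 and 2 without Large White replicate 2. Of all tested features, 9.32%, 17.4%, 14.0% and 8.89% were under 0.05 in these fits, in the same order. The median log2 fold change was -0.14, with 17 of 25 below 0, and it was 0.034, with 10 of 25 below 0, with levels scaled to the RPKM outside mtDNA. TEFM, the elongation factor of mitochondrial transcription, was at 1.86, 1.85 and 1.83 RPKM in Meishan against 3.97, 4.03 and 2.36 RPKM in Large White (-0.62 ± 0.21, limma adjusted p = 0.221).

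PPARGC1A, a coactivator of genes of mitochondrial biogenesis, was at 3.82, 2.97 and 0.889 RPKM in Meishan against 0.318, 0.807 and 0.681 RPKM in Large White. Every Meishan sample was above every Large White sample, Meishan replicate 3 by little. This held for 2 of the 25 tested genes of the list, against 9.94% of all tested features. The log2 fold change of PPARGC1A was 1.06 ± 0.35 (limma adjusted p = 0.222). Without Meishan replicate 3 it was called, at 1.46 ± 0.22 (limma adjusted p = 0.0247). LRPPRC, which stabilises mitochondrial messengers, had the highest mean level of this list, 51.0 RPKM. SLIRP, the partner of LRPPRC, had the lowest of the 26 matched genes, 0.190 RPKM, and was not tested, and TFB1M, a methyltransferase of mitochondrial ribosomal RNA, had the lowest of the 25 tested, 0.531 RPKM.

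The genes whose level across the 6 samples was most like the summed ND level were sought among 7968 protein-coding genes with a symbol, outside mtDNA and with a mean of at least 1 RPKM. The measure was Pearson's r of log2(RPKM + 1) with the log2 of the summed ND RPKM, a description over 6 samples with no test. The 5 highest were SLC25A15, the mitochondrial ornithine carrier (r = 0.978), ZHX2 (0.966), PCDH17 (0.961), ETV3 (0.960) and PHLDB2 (0.959). SLC25A15 was at 1.25, 2.81 and 1.98 RPKM in Meishan against 1.55, 1.72 and 1.64 RPKM in Large White.

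The 5 lowest were CFAP126 (r = -0.992), TPMT (-0.990), SF3B4 (-0.983), ELAC2 (-0.982) and PLEKHF1 (-0.963). ELAC2, which cuts the 3' ends of tRNAs out of mitochondrial and nuclear transcripts, was also in the list of mitochondrial RNA genes. It was at 9.12, 6.20 and 7.39 RPKM in Meishan against 9.03, 8.37 and 8.94 RPKM in Large White. Its lowest value was in Meishan replicate 2, where the ND genes were highest, which its choice by a low r makes likely. Between the breeds its log2 fold change was -0.20 ± 0.17 (limma adjusted p = 0.605).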

How the data were processed

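Total RNA of 6 ovary samples was depleted of ribosomal RNA, made into strand-specific paired-end libraries and sequenced. The authors deposited 1 RPKM value per feature and sample. By the study's methods, reads were mapped with TopHat to S. scrofa v10.2 with Ensembl annotations, counted by strand with htseq-count at a mapping quality of at least 1, and scaled to gene length and to mapped reads. The submitters' processing notes name TopHat2 2.1.0 and HTSeq. How reads touching 2 genes were counted is not given in the sources used here.

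Each sample was grouped by the breed in its label. Depth, gene lengths and reads were recovered from the steps of the RPKM values with 1998 lncRNA lengths listed by the study. A depth was accepted only if 100% of the values tested were whole reads (tolerance 1e-06), so this share is a condition of the recovery. Recovered lengths equalled those of RefSeq for 11 of 13 mtDNA genes. Symbols came from a table of Ensembl identifiers, which named 11654 of the protein-coding genes.

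Breeds were compared by linear models in limma 3.58.1 (R 4.3.3). The values were log2(RPKM + 1), the variance was moderated by eBayes with its trend option, and features needed 0.5 RPKM or more in 3 or more samples. Benjamini-Hochberg adjustment ran over all tested features. With a pseudocount of 1, changes of low genes come out too small. The procedure was tested on simulated data. Sums, ratios and pairs were tested by exact permutation with Python 3.11.15, numpy 2.4.6, pandas 2.3.3 and scipy 1.17.1, and plotted with matplotlib 3.10.9.

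The ND genes and all lists were chosen with earlier results of these data known. Of each nuclear list, the text names called genes, or else the 2 with the lowest p and the members with the highest and lowest level. It names the 5 genes with the highest and the 5 with the lowest correlation with the summed ND level. Genes named outside this rule are said to be so chosen, or serve as markers. Alternatives covered the pseudocount, the filter, scaling, the trend, the replicate block and leaving out 1 sample at a time. Limma-voom on the recovered reads was added after seeing the data.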

Additional observations from a re-analysis of the deposited data

How the results depend on the processing

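Of the 112 alternative estimates for single ND genes, 42 left 1 sample out, and 5 of these reversed. Without Meishan replicate 2 these were ND1 (-0.28), ND2 (-0.037) and ND3 (-0.28), and for ND3 also without Large White replicate 1 (-0.016) and replicate 3 (-0.18). The 70 others kept their direction. They include changes of the filter, the trend, the fold limit and the replicate block. Those changes leave the estimate itself the same by design, so it could not reverse. With 1 sample left out, ND1 ranged from -0.28 to 0.62, ND2 from -0.037 to 0.84 and ND3 from -0.28 to 0.25. No ND gene and no other mtDNA gene was called under any alternative, and the lowest adjusted p of an ND gene in limma was 0.148, without Meishan replicate 1. In that fit 4 of 7 had an unadjusted p under 0.05, against 17.4% of all tested features. The summed ND difference ranged from 0.066 (without Meishan replicate 2) to 0.94 with 1 sample left out and from 0.51 to 0.76 otherwise, and the ND6 ratio from 0.19 to 0.54 and from 0.11 to 0.35. Nuclear complex I gave 1 call, NDUFB5, under quantile normalization, and 0 to 1 with 1 sample left out; the mitochondrial RNA list gave 0 to 1, the 1 being PPARGC1A without Meishan replicate 3. The number of pairs with the same order in every sample was 12 to 13 with 1 sample left out, where the sign-flip test cannot pass 0.05. Over all features 113 were called, 32 higher and 81 lower in Meishan. The count was 62 with a pseudocount of 0.1, 6 with no filter, 74 with limma-voom, and 2 to 240 with 1 sample left out (240 without Meishan replicate 3, 39 without Meishan replicate 1, 20 without Meishan replicate 2, 3 without Large White replicate 1, 3 without replicate 2 and 2 without replicate 3). With scaling to the RPKM outside mtDNA it was 46 higher and 45 lower. The cause of these changes was not tested.

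The labels number the replicates 1 to 3 in both breeds, but the deviations of samples with the same number correlated at only -0.042, 0.12 and 0.15, and 3 of 6 samples correlated best with their own number, so the numbers were not taken to pair the samples. With the replicate block 27 features were called and 0 of 7 ND genes. With 1 sample per breed in each block, the differences in summed ND level (0.51) and ND6 ratio (0.35) are the same by design. Only the p-values could change (exact sign-flip p = 0.5 and 0.25, where 3 pairs cannot go below 0.25).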
